A study of Saccharomyces cerevisiae with 4 samples.

Results

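The 42 genes described here encode the yeast kinetochore and the spindle checkpoint. They were chosen by ORF name: the Ndc80, Mtw1, Dam1 and Ctf19 complexes, 3 centromere proteins, 3 subunits of the chromosomal passenger complex, shugoshin (SGO1) and 6 genes of the BUB, MAD and MPS1 checkpoint group. All 42 were among the 6348 ORFs with reads in at least 1 library, and 39 had enough reads to be tested. Poly(A) RNA had been sequenced from 2 haploid cultures (strain L6437, MATa) and 2 tetraploid cultures (the isogenic strain L6440, MATaaaa) of Σ1278b, a filament-forming laboratory background of budding yeast. Both strains carry ura3-52, leu2::hisG and his3::hisG, and both were grown to mid-log phase in synthetic complete medium with 2% glucose at 30 C. Each ploidy was represented by 1 strain, so a difference between ploidies cannot be told apart from any other difference between these strains. The letters A and B in the library names mark the pairs, each of 1 haploid and 1 tetraploid library. The comparison asked whether the level of these genes, relative to most other genes, differs between small haploid cells and the larger tetraploid cells. A complete tetraploid chromosome set holds 4 copies of every centromere, but copy number was not measured here.

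The kinetochore is the protein assembly that ties a centromere to spindle microtubules. In budding yeast each centromere is a short DNA sequence wrapped around a nucleosome with the histone variant Cse4, and it binds a single microtubule. The Ctf19 complex and Mif2 sit on this nucleosome, the Mtw1 complex bridges inner and outer layers, and the Ndc80 complex and the ring-forming Dam1 complex hold the microtubule. The spindle checkpoint delays anaphase until every kinetochore is attached, and the passenger complex with its kinase Ipl1 releases attachments that are not under tension. Yeast tetraploids are known to depend more than haploids on genes for spindle function, sister chromatid cohesion and recombination.

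The 4 libraries held between 3612527 and 4133193 reads on ORFs. Reads were converted to CPM, the reads on a gene divided by the reads on all ORFs in units of 1e6. The reads on all ORFs were first scaled with trimmed mean (TMM) factors. Every level is thus relative to most other genes, and is neither an amount per cell nor a plain share of the reads. Over all genes tested the CPM summed to 1.19e+06 in haploid A, 1.02e+06 in haploid B, 970153 in tetraploid A and 842377 in tetraploid B. The cultures were mixtures of cell cycle stages, in which fewer cells that express a gene and less RNA per cell cannot be told apart. The 6 a-specific mating genes listed as markers of MATa cells were detected in all libraries, but at lower levels in tetraploids. For all 6, both tetraploid libraries lay below both haploid libraries (20.5% of all genes tested). Their summed level was 1109 ± 302 CPM in haploids and 269 ± 27.6 CPM in tetraploids (SD, n = 2). The study had listed all 6 as repressed in the tetraploid from these libraries. Of the 4 alpha-specific genes, STE3 had between 28 and 32 reads per library, SAG1 between 45 and 61, MFALPHA2 between 2 and 13, and MFALPHA1 was listed with 2 reads in each library of pair B and not listed in pair A.

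None of the 39 tested kinetochore and checkpoint genes passed the test between ploidies. Under edgeR's quasi-likelihood test (Benjamini-Hochberg adjusted p under 0.05), 0 were called lower and 0 higher in tetraploids, as also under DESeq2 and limma-voom, where the edgeR background was 5.35% of the 5680 genes tested called lower and 2.52% called higher. The genes leaned upward all the same: 29 of the 39 had a log2 fold change (tetraploid over haploid) above 0, or 74.4%, against a background of 51.1%. Their median log2 fold change was 0.25, against 0.01 over all genes tested, and the values ran from -0.58 to 0.86. The lean was larger in pair A, with a median of 0.38, than in pair B, with 0.08.

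Haploid A was low for these genes. It was the library with the lowest CPM for 24 of the 39, or 61.5%, against 35.0% of all genes tested. Its TMM factor, 0.840, was the lowest of the 4, the highest being 1.19. CPM are divided by this factor, so a low factor raises them. Haploid B lay above haploid A for 29 of the 39 genes, with a median log2 difference of 0.39 between these replicates, against 0.03 over all genes. Tetraploid B also lay above tetraploid A for 27 of the 39, where 2845 of the 5680 genes tested did so. The median log2 difference there was 0.16, against 0.0005 over all genes. A gene higher in tetraploids and higher in pair B has its lowest level in haploid A. The count of 24 is therefore not separate from the upward lean. Without haploid A, in a fit without the pair as a block, the median over the 39 genes was 0.04, and 21 of 39 lay above 0. Leaving out tetraploid B in the same way gave 0.15 and 24 of 39, haploid B 0.49 and 32, and tetraploid A 0.27 and 33. Pair B alone, which holds no haploid A, had 27 of 39 above 0 with a median of 0.08. Summed over all 42 genes, haploid A held 1399 reads, haploid B 1959, tetraploid A 2242 and tetraploid B 2786. The sum was 501 ± 77.9 CPM in haploids and 554 ± 39.1 CPM in tetraploids (SD, n = 2). With this TMM scaling the ploidies differed by less than the spread between the haploid replicates. That spread includes the difference between the pairs. With total counts instead of TMM factors, the median log2 fold change of the 39 genes was 0.53, against 0.30 over all genes tested. The sums were compared with TMM factors only. Within pair A the sum went from 446 CPM in the haploid to 527 CPM in the tetraploid, and within pair B from 556 to 582 CPM.

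**Figure D1:**
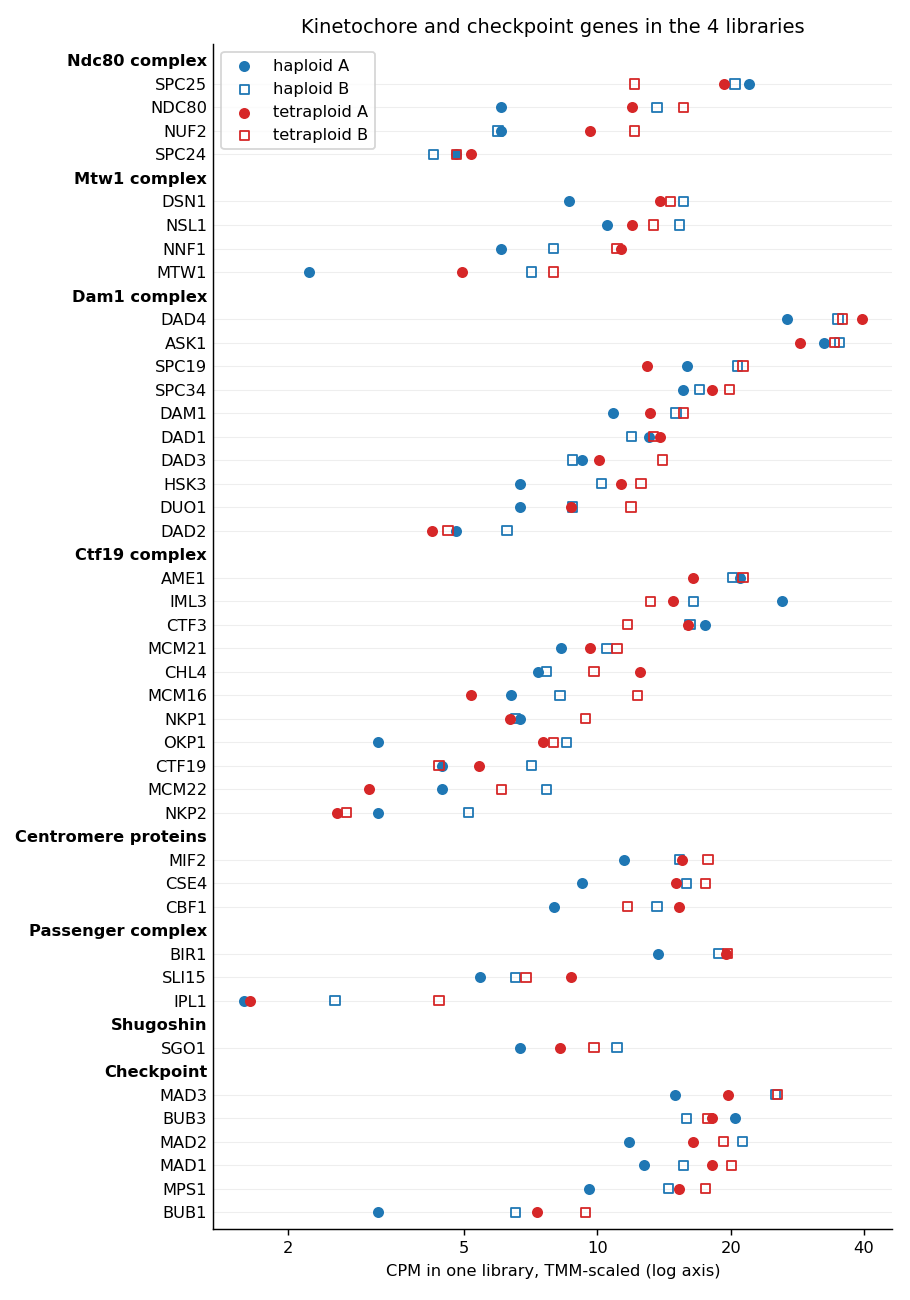
Level of each of the 42 genes in each of the 4 libraries, in TMM-scaled CPM on a log axis, grouped by complex. Blue marks stand for haploids and red marks for tetraploids, filled circles for pair A and open squares for pair B. Haploid A is the leftmost mark for many genes, among them all of the Mtw1 complex.

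With an unadjusted p under 0.05 as the rule, 2 genes, IML3 and SPC25, were called lower against a background of 14.2%, and 3 genes, NUF2, NNF1 and BUB1, were called higher against a background of 10.6%. Both tetraploid libraries lay above both haploid libraries for 15 of the 39 genes, where 21.9% of all genes tested did so, and below both for 4, where 20.5% did so. Both pairs gave a ratio above 0 for 22 genes, against a background of 34.6%, and below 0 for 5, against 33.7%; for the other 12 the pairs had opposite signs.

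In the Ndc80 complex, a rod whose Ndc80 and Nuf2 heads bind the microtubule and whose Spc24 and Spc25 end binds the Mtw1 complex, 3 of the 4 genes lay above 0 and SPC25 lay below. NUF2 (YOL069W) had 19 reads in haploid A, 21 in haploid B, 41 in tetraploid A and 58 in tetraploid B. Both tetraploids lay above both haploids, at 10.9 ± 1.76 CPM against 6.01 ± 0.0668 CPM. This was the highest log2 fold change among the 39 genes, 0.86 with a 95% interval from 0.26 to 1.46, and also their lowest adjusted p, 0.0732.

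SPC25 (YER018C) had 69 reads in haploid A, 72 in haploid B, 82 in tetraploid A and 58 in tetraploid B. After scaling, both tetraploids lay below both haploids, although tetraploid A was close to them. Its level was 21.2 ± 1.10 CPM in haploids and 15.7 ± 5.06 CPM in tetraploids, a log2 fold change of -0.46 (95% interval -0.90 to -0.02, adjusted p = 0.184).

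NDC80 (YIL144W), which names the complex, had 19 reads in haploid A, 48 in haploid B, 51 in tetraploid A and 75 in tetraploid B. Haploid A alone was low, the groups overlapped, and the log2 fold change was 0.50 (adjusted p = 0.242). SPC24 (YMR117C), the partner of Spc25, had 15 reads in each haploid library, 22 in tetraploid A and 23 in tetraploid B, with a log2 fold change of 0.14 (adjusted p = 0.843). The summed level of the complex was 41.6 ± 3.82 CPM in haploids and 45.4 ± 0.95 CPM in tetraploids.

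All 4 genes of the Mtw1 complex, which joins the inner kinetochore to Ndc80, had their lowest level in haploid A. NNF1 (YJR112W) had 19 reads in haploid A, 28 in haploid B, 48 in tetraploid A and 53 in tetraploid B. The groups did not overlap, at 7.0 ± 1.34 CPM in haploids and 11.2 ± 0.145 CPM in tetraploids, and the log2 fold change was 0.67 (95% interval 0.09 to 1.24, adjusted p = 0.141). NSL1 (YPL233W) lay at the other end of the complex, with 33 reads in haploid A, 54 in haploid B, 51 in tetraploid A and 64 in tetraploid B. Its groups overlapped, and its log2 fold change of -0.03 (adjusted p = 0.953) combined a log2 ratio of 0.19 for pair A with one of -0.20 for pair B.

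MTW1 (YAL034W-A) had 7 reads in haploid A, 25 in haploid B, 21 in tetraploid A and 38 in tetraploid B. The haploid replicates were further apart than the ploidies, at 4.66 ± 3.44 CPM against 6.44 ± 2.13 CPM, and the log2 fold change was 0.47 (adjusted p = 0.440). DSN1 (YIR010W), a subunit that Ipl1 phosphorylates, had 27 reads in haploid A, 55 in haploid B, 59 in tetraploid A and 70 in tetraploid B, with overlapping groups and a log2 fold change of 0.23. Over the complex, pair A had a median of 0.79 and pair B one of 0.03.

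The Dam1 complex, 10 small proteins that form a ring around the microtubule, was the group with the most reads. Of its 10 genes 7 had a log2 fold change above 0, the median was 0.19, and none passed the test. The highest was HSK3 (YKL138C-A), with 21 reads in haploid A, 36 in haploid B, 48 in tetraploid A and 60 in tetraploid B. Its groups did not overlap, at 8.46 ± 2.49 CPM against 11.9 ± 0.889 CPM, and its log2 fold change was 0.49 (95% interval -0.06 to 1.04, adjusted p = 0.256). The lowest was DAD2 (YKR083C), with 15 reads in haploid A, 22 in haploid B, 18 in tetraploid A and 22 in tetraploid B. Both tetraploids lay below both haploids, narrowly in the case of tetraploid B and haploid A, and the log2 fold change was -0.32 (95% interval -1.06 to 0.42, adjusted p = 0.608).

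DAD4 (YDR320C-A), a short gene of 219 coding bases, had more reads than any other member: 84 in haploid A, 123 in haploid B, 168 in tetraploid A and 171 in tetraploid B. Both tetraploids lay above both haploids, but pair B contributed a log2 ratio of 0.03 and pair A one of 0.56, for a log2 fold change of 0.28 (adjusted p = 0.328). ASK1 (YKL052C), next in reads, had 102 in haploid A, 124 in haploid B, 122 in tetraploid A and 164 in tetraploid B. Its haploid and tetraploid levels of 33.9 ± 1.90 CPM and 31.5 ± 3.96 CPM overlapped, and its interval, -0.45 to 0.24, was the narrowest of the 39. The other Dam1 genes were DAD3 (YBR233W-A, log2 fold change 0.42), DUO1 (YGL061C, 0.41), SPC34 (YKR037C, 0.22), DAM1 (YGR113W, 0.15), DAD1 (YDR016C, 0.13) and SPC19 (YDR201W, -0.10). The summed level of the complex was 156 ± 18.9 CPM in haploids and 172 ± 16.1 CPM in tetraploids. Each tetraploid sum lay above that of its paired haploid, at 160 against 142 CPM (A) and 183 against 169 CPM (B). Haploid B still lay above tetraploid A, so the groups overlapped.

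The Ctf19 complex, the inner layer that sits on the Cse4 nucleosome, was divided. Of its 9 tested genes 5 lay above 0 and 4 below, with a median of 0.14. IML3 (YBR107C), which acts with Chl4 in bringing cohesin to the region around the centromere, had 82 reads in haploid A, 58 in haploid B, 63 in tetraploid A and 63 in tetraploid B. Haploid A was its highest library. Both tetraploids lay below both haploids, at 14.0 ± 1.16 CPM against 21.3 ± 6.84 CPM, and its log2 fold change of -0.58 (95% interval -1.03 to -0.14, adjusted p = 0.0958) was the lowest of the 39 genes.

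CHL4 (YDR254W), the binding partner of Iml3, had the highest log2 fold change of the complex. It had 23 reads in haploid A, 27 in haploid B, 53 in tetraploid A and 47 in tetraploid B. The groups did not overlap (7.50 ± 0.236 CPM against 11.1 ± 1.86 CPM). The log2 fold change was 0.56 with a 95% interval from -0.01 to 1.13 (adjusted p = 0.215), so the values of these partners lay on opposite sides of 0. The difference between the partners was not tested.

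The 4 genes of the COMA group within this complex were split too: OKP1 (YGR179C) at 0.40 and MCM21 (YDR318W) at 0.14, AME1 (YBR211C) at -0.12 and CTF19 (YPL018W) at -0.26. Okp1 and Ame1 are the essential members of that group. OKP1 had 10 reads in haploid A, 30 in haploid B, 32 in tetraploid A and 38 in tetraploid B, so that haploid A alone stood low and pair B gave a log2 ratio of -0.10. In the R64 annotation CTF19 overlaps another ORF on the opposite strand, and reads on both strands were counted, so that its 14 to 25 reads per library cannot be assigned to it alone. Of the remaining tested genes of the complex, CTF3 (YLR381W) had both tetraploids below both haploids at a log2 fold change of -0.30, while MCM16 (YPR046W, 0.25) and NKP1 (YDR383C, 0.26) had opposite signs in the 2 pairs.

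The 3 genes that were not tested had too few reads. NKP2 (YLR315W), a nonessential Ctf19 subunit that also overlaps an opposite-strand ORF, had 10 reads in haploid A, 18 in haploid B, 11 in tetraploid A and 13 in tetraploid B. MCM22 (YJR135C), which binds Ctf3 and Mcm16, had 14, 27, 13 and 29 reads in the same order. IPL1 (YPL209C), the Aurora B kinase, had 5, 9, 7 and 21 reads, and the exact Poisson 95% interval around the count of 5 ran from 1.62 to 11.7 reads, for counting error only. The groups overlapped for IPL1 and MCM22, and for NKP2 both tetraploids lay below both haploids.

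All 3 centromere proteins had a log2 fold change above 0 and their lowest level in haploid A. CSE4 (YKL049C), the centromeric histone H3 variant, had 29 reads in haploid A, 56 in haploid B, 64 in tetraploid A and 84 in tetraploid B. Haploid B lay between the tetraploids, and the log2 fold change was 0.38 (95% interval -0.11 to 0.86, adjusted p = 0.323). MIF2 (YKL089W), the CENP-C protein of yeast, had 36, 54, 66 and 85 reads in the same order, with groups that did not overlap and a log2 fold change of 0.31 (adjusted p = 0.390). CBF1 (YJR060W), which binds a centromere element and also the promoters of methionine synthesis genes, had 25, 48, 65 and 56 reads. Its groups overlapped, and its log2 fold change of 0.30 (95% interval -0.28 to 0.88, adjusted p = 0.537) joined a ratio of 0.94 in pair A with one of -0.22 in pair B. The sum of these 3 genes was 36.8 ± 11.4 CPM in haploids and 46.4 ± 0.84 CPM in tetraploids.

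**Figure D2:**
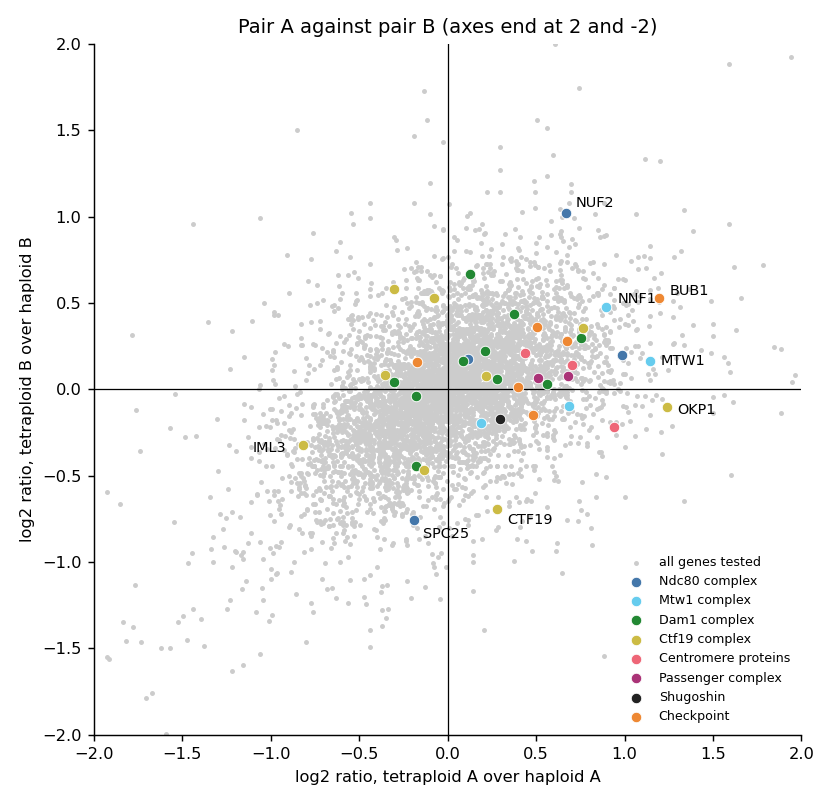
Log2 ratio of tetraploid over haploid in pair A (x axis) and in pair B (y axis) for all genes tested (grey) and for the 39 tested kinetochore and checkpoint genes (coloured by complex). The 39 genes have a median of 0.38 along the x axis and 0.08 along the y axis; NUF2 is high in both pairs, whereas OKP1, at 1.24 in pair A and -0.10 in pair B, is high in pair A alone.

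In the passenger complex, SLI15 (YBR156C), the INCENP subunit that activates Ipl1, had 17 reads in haploid A, 23 in haploid B, 37 in tetraploid A and 33 in tetraploid B. BIR1 (YJR089W), the survivin subunit, had 43, 66, 83 and 94 reads in the same order. Neither gene had overlapping groups, and both 95% intervals included 0. The log2 fold change was 0.37 for SLI15 (95% interval -0.29 to 1.03, adjusted p = 0.504) and 0.27 for BIR1 (95% interval -0.17 to 0.70, adjusted p = 0.451). For BIR1 haploid B and tetraploid A were nearly level, and pair B gave a log2 ratio of 0.07. SGO1 (YOR073W), the shugoshin that senses tension at the centromere, had 21 reads in haploid A, 39 in haploid B, 35 in tetraploid A and 47 in tetraploid B. Its groups overlapped, and its log2 fold change was 0.02 (95% interval -0.56 to 0.60, adjusted p = 0.972).

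Of the 6 checkpoint genes 5 lay above 0, the median log2 fold change was 0.30, and 5 had their lowest level in haploid A. BUB1 (YGR188C), the kinase that marks centromeric histone H2A and recruits Sgo1, had 10 reads in haploid A, 23 in haploid B, 31 in tetraploid A and 45 in tetraploid B. Both tetraploids lay above both haploids, at 8.34 ± 1.5 CPM against 4.86 ± 2.36 CPM, and the log2 fold change was 0.77 (95% interval 0.09 to 1.46, adjusted p = 0.146). BUB3 (YOR026W), the partner that holds Bub1 at the kinetochore, lay at the other end of the group. It had 64 reads in haploid A, 56 in haploid B, 77 in tetraploid A and 85 in tetraploid B, with haploid A the highest library after scaling. Its log2 fold change was -0.01 (95% interval -0.43 to 0.42, adjusted p = 0.987).

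MPS1 (YDL028C), the kinase that starts checkpoint signalling and also acts in spindle pole body duplication, had 30 reads in haploid A, 51 in haploid B, 65 in tetraploid A and 84 in tetraploid B. MAD1 (YGL086W), which carries Mad2 to unattached kinetochores, had 40, 55, 77 and 96 reads in the same order. In both genes the tetraploids lay above the haploids, with log2 fold changes of 0.45 (adjusted p = 0.229) and 0.43 (adjusted p = 0.211), and both were above 0 in each pair. The effectors that bind the anaphase activator Cdc20 were closer to 0. MAD3 (YJL013C) had 47, 89, 84 and 122 reads and a log2 fold change of 0.18, and MAD2 (YJL030W) had 37, 75, 70 and 92 reads and one of 0.11. For both, the haploid replicates were further apart than the ploidies, and haploid B lay among or above the tetraploids.

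**Figure D3:**
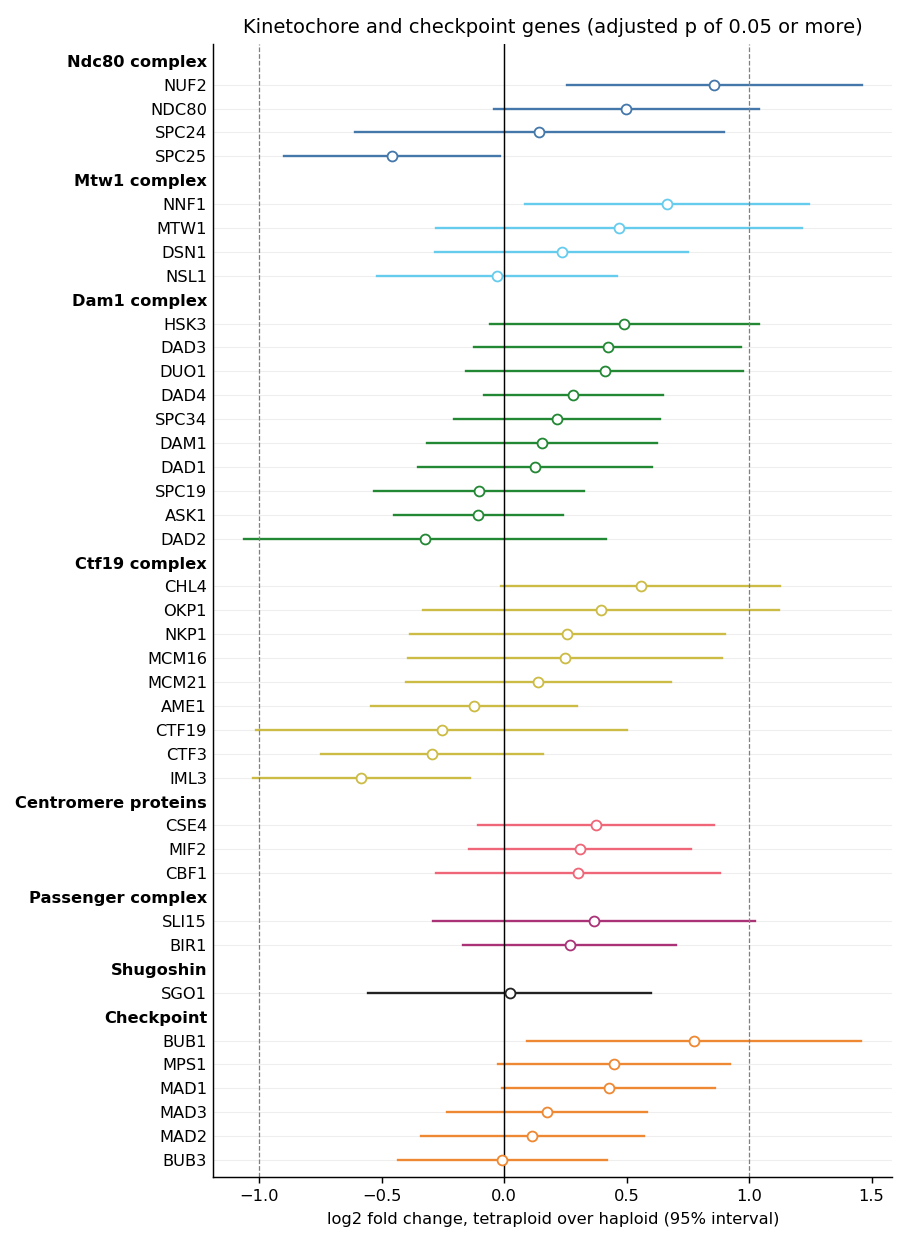
Log2 fold change, tetraploid over haploid, with 95% intervals for the 39 tested genes from edgeR's quasi-likelihood fit, grouped by complex. Dashed lines mark 2-fold lower and 2-fold higher; the open circles run from -0.58 (IML3) to 0.86 (NUF2), and all have an adjusted p of 0.05 or more.

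The reads set a limit to what could be seen. The 42 genes had between 5 and 171 reads per library, with a median of 47.5, against 110 over all genes tested. Standard errors of the log2 fold change ran from 0.162 to 0.356. For 27 of the 39 genes the 95% interval lay within 2-fold in either direction, for 9 it reached 2-fold higher, and for 3 it reached 2-fold lower, so that for these last genes the reads do not limit the difference to less than 2-fold. With 2 cultures a ploidy, an exact two-sided permutation test of a single gene that ignores the pairs cannot give a p below 0.333. Keeping the pairs would leave fewer rearrangements and a higher limit.

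Scaling decided whether any gene was called. With DESeq2's size factors in the edgeR fit, NUF2 was called higher and IML3 lower. Over all 5680 genes tested, that fit called 262 higher and 490 lower. With total counts instead of TMM factors, the all-gene median moved to 0.30, the split over all genes turned from 304 lower and 143 higher to 115 lower and 1168 higher, and 7 genes were called higher (NUF2, NNF1, CHL4, BUB1, MPS1, MAD1 and DAD4). Relative to the median of all genes, the median of the 39 genes was 0.24 in both fits.

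Levels were compared between genes only per kilobase of coding length. The tested genes had a median of 12.1 CPM per kilobase, against 23.4 for all genes tested that have a coding length in the R64 annotation. Of the 39 genes 30 lay below that median and 18 below the lower quartile of 11.3. DAD4 was highest with 156 ± 24.4 CPM per kilobase (SD, n = 4 libraries) and BUB1 lowest among those tested with 2.15 ± 0.842, a ratio of 72.6. The genes near the top were mostly Dam1 subunits: HSK3 at 48.5, DAD1 at 45.8, ASK1 at 37.2, DAD3 at 37.0 and SPC19 at 35.6 CPM per kilobase followed DAD4. Near the bottom, next to BUB1 and the untested IPL1 at 2.31, were SLI15 at 3.28 and CTF19 at 4.81. Among these the SD over the 4 libraries was between 0.649 and 1.18, so that BUB1 and IPL1 did not differ beyond their spread.

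Subunits of 1 complex did not have equal transcript levels. The ratio of the highest to the lowest level per kilobase was 4.86 in the Ndc80 complex, where SPC25 stood at 27.7 and NDC80, NUF2 and SPC24 between 5.70 and 7.40. It was 3.08 in the Mtw1 complex, 4.97 in the Ctf19 complex, 12.9 in the Dam1 complex and 13.5 among the checkpoint genes, where MAD2 at 29.1 was the highest. In the Ndc80 complex this ratio was 7.19 in haploids and 3.54 in tetraploids, with SPC25 the highest in both, at 31.9 and 23.6 CPM per kilobase. The lowest was NUF2 in haploids, at 4.43 (8.02 in tetraploids), and NDC80 in tetraploids, at 6.66 (4.74 in haploids). No test was made of these ratios.

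**Figure D4:**
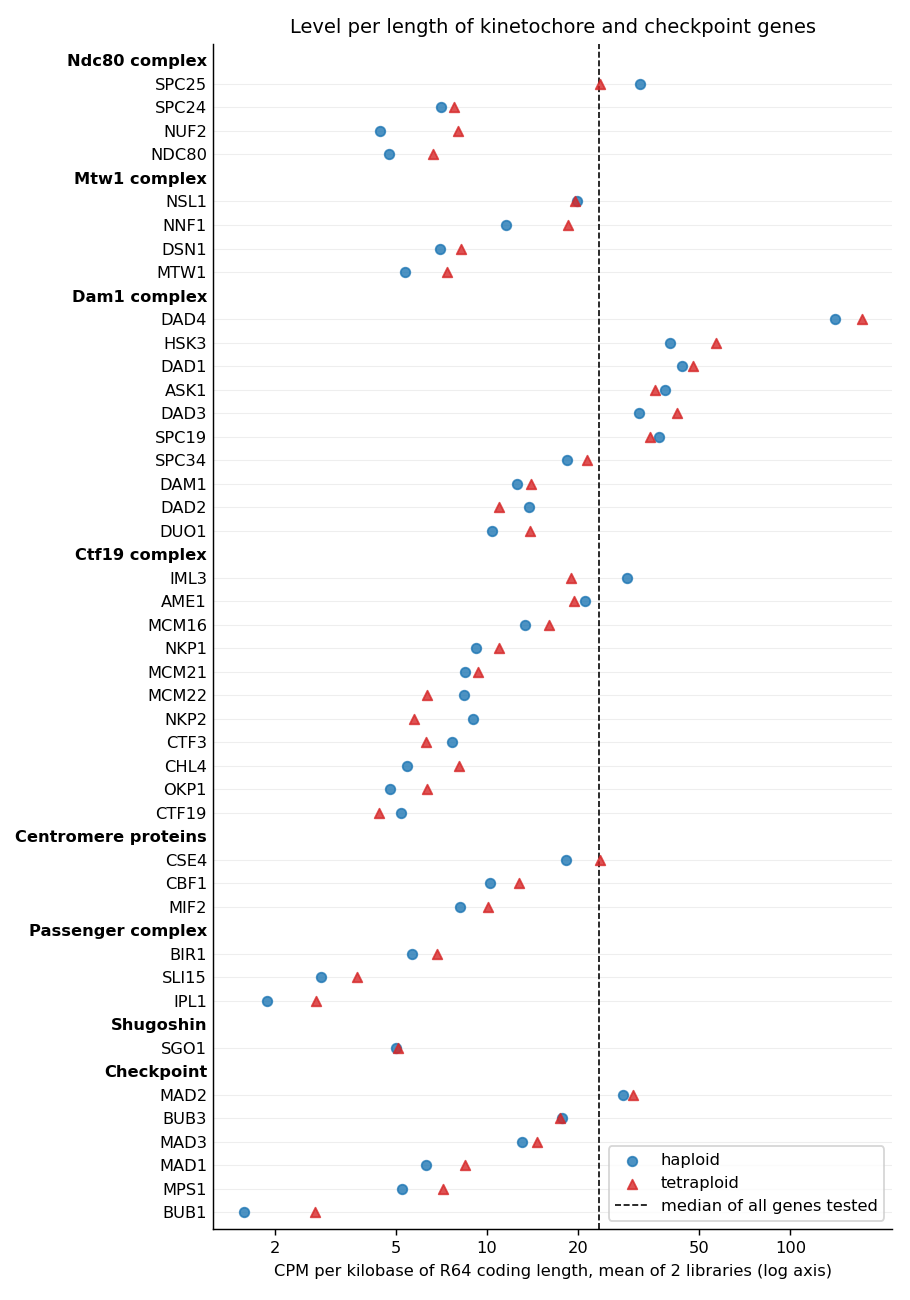
Level of each of the 42 genes in CPM per kilobase of R64 coding length on a log axis, with a circle for the haploid mean and a triangle for the tetraploid mean (2 libraries each). The dashed line is the median of all genes tested, 23.4; 6 of the 10 Dam1 genes lie to its right and all Ctf19 genes but the haploid value of IML3 to its left.

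Other genes of the same pathway leaned upward too, mostly in pair A. Of 30 further kinetochore, microtubule-binding and anaphase genes 29 were tested (SCM3, the Cse4 chaperone, was not), 22 lay above 0 (background 51.1%) and the median log2 fold change was 0.18, with 0.22 in pair A and 0.05 in pair B. Haploid A was the lowest library for 18 of the 29, or 62.1%, against 35.0% of all genes tested. At an adjusted p under 0.05, 2 were higher (background 2.52%) and 1 was lower (background 5.35%) in tetraploids. These 3 calls rest on the model: 0 were made without the pair as a block, with DESeq2 or without the filter on low reads. BIK1 (YCL029C), a microtubule plus-end protein, had 72 reads in haploid A, 114 in haploid B, 206 in tetraploid A and 220 in tetraploid B. It rose from 27.7 ± 6.66 to 47.2 ± 1.72 CPM, with a log2 fold change of 0.77 (SE 0.17, adjusted p = 0.0124). BIK1 lies on chromosome 3, where the median of the 143 genes tested was 0.27.

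SLK19 (YOR195W), a kinetochore and spindle midzone protein that helps release Cdc14, had 26 reads in haploid A, 46 in haploid B, 78 in tetraploid A and 106 in tetraploid B. It rose from 10.7 ± 3.37 to 20.2 ± 2.70 CPM, a log2 fold change of 0.92 (adjusted p = 0.0177). The study had listed SLK19 as induced in tetraploids from these libraries, so its call is not independent evidence. By quantitative PCR on other cultures, grown in YPD medium, the study also found SLK19 higher in the tetraploid. It found no significant difference for SLK19 in enlarged haploid cells that lack CLN3. Those cells and their wild type were arrested in M phase with nocodazole, whereas the haploid and tetraploid PCR cultures were asynchronous. CDC14 (YFR028C), the phosphatase that drives mitotic exit, had 181 reads in haploid A, 240 in haploid B, 157 in tetraploid A and 176 in tetraploid B. It fell from 62.9 ± 7.38 to 36.8 ± 0.0829 CPM, a log2 fold change of -0.77 (adjusted p = 0.00359), and it lies on chromosome 6, where the median of the 102 genes tested was -0.39. None of the 42 kinetochore and checkpoint genes lies on chromosome 3 or chromosome 6.

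Among the microtubule-binding genes 9 of 10 lay above 0 (background 51.1%) and haploid A was the lowest library for 7 (background 35.0%). The median was 0.38 (pair A 0.43, pair B 0.35). Besides BIK1, STU1 (0.56), ASE1 (0.52), KIP1 (0.50) and CIN8 (0.49) had an unadjusted p under 0.05 and adjusted p-values between 0.131 and 0.141. With BIK1 these were 5 of the 10 genes, where 10.6% of all genes tested were higher by the unadjusted rule. Stu1 stabilises microtubules, Ase1 bundles them in the midzone, and Kip1 and Cin8 are the motors that push spindle poles apart. The CBF3 genes, which bind the centromere sequence itself, went both ways, from -0.46 for CTF13 (adjusted p = 0.449) to 0.22 for NDC10 (adjusted p = 0.533), with a median of 0.09. For SPC105, the scaffold on which Bub1 and Bub3 assemble, the log2 fold change was 0.03, and for CDC20, the target of the checkpoint, it was 0.18.

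**Figure D5:**
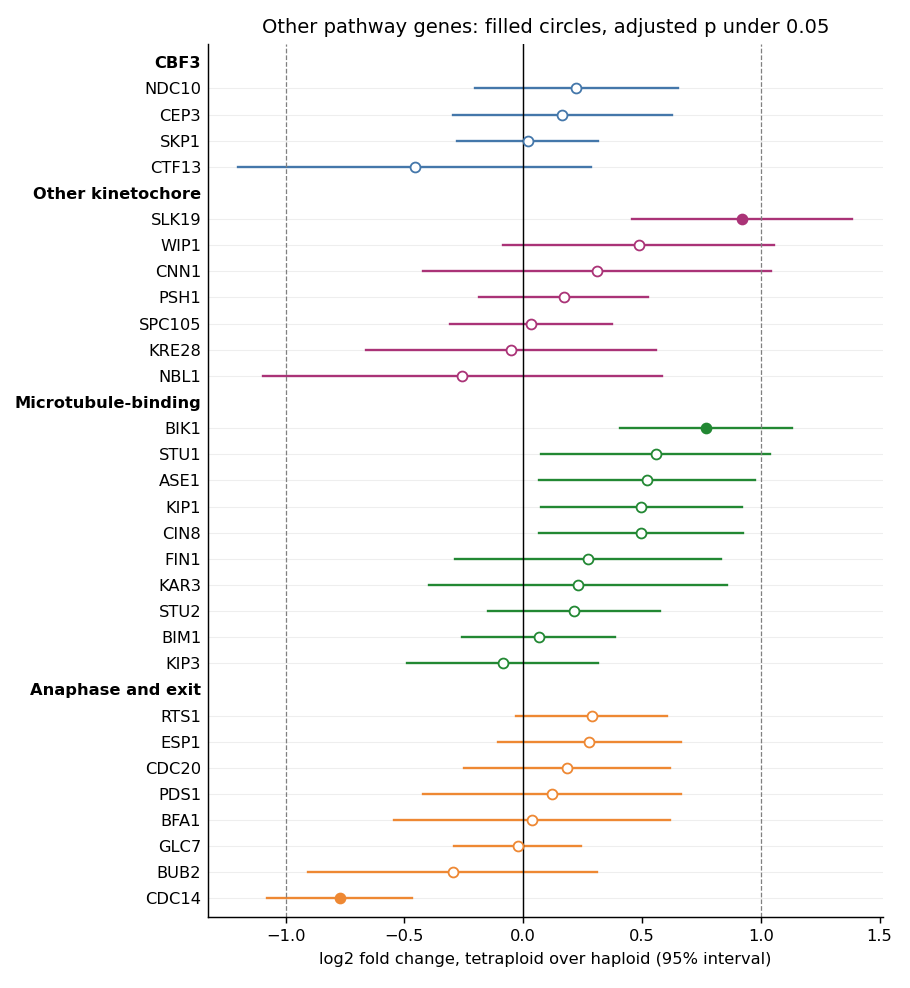
Log2 fold change, tetraploid over haploid, with 95% intervals for 29 further genes of the pathway. Filled circles mark the 3 with an adjusted p under 0.05: SLK19 at 0.92 and BIK1 at 0.77 are higher and CDC14 at -0.77 is lower.

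Genes that mark cell cycle stages were examined beside the kinetochore genes, since many of the latter are transcribed periodically. Of 18 such genes 3 were called, 2 lower (background 5.35%) and 1 higher (background 2.52%), and 0 without the block, with DESeq2 or without the filter. CLN1, a G1 cyclin, fell by 0.67 and FAR1, an inhibitor of G1 cyclin kinase, fell by 0.87 on the log2 scale (adjusted p = 0.0218 and 0.00508). CDC5, the polo kinase of mitosis, rose by 0.56 (adjusted p = 0.0423), while CLB2 (-0.28, adjusted p = 0.307) and CLB1 (-0.08, adjusted p = 0.842), cyclins of the same stage, did not pass the test. The part of cell cycle stage in the values of the kinetochore genes was not tested.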

How the data were processed

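The authors prepared poly(A) RNA libraries, sequenced them for 36 cycles on the Genome Analyzer 2, used Bowtie to map reads to the genome of Σ1278b and deposited 1 read count per annotated ORF and library, without normalization and with reads of both strands counted. Only ORFs with reads were listed, the lowest count being 2. Per the labels, each library has a ploidy and a replicate letter. The letters were treated as pairs because the study compares haploid and tetraploid libraries within them, and deviations from the group means agreed between libraries of the same letter (r = 0.53 across genes). Each library came from its own culture. The biological coefficient of variation was 0.0858 in the blocked fit and 0.182 in the fit without a block.

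Genes that reached 15 reads in 1 or both libraries of each pair were tested with edgeR 4.0.16 (R 4.3.3): TMM factors, quasi-likelihood test, pair as a block, Benjamini-Hochberg adjustment over all 5680 genes, threshold 0.05. Library sizes were all reads on ORFs, 3735445 in haploid A, 3612527 in haploid B, 4133193 in tetraploid A and 4036830 in tetraploid B. Standard errors and 95% intervals came from the same fit. CPM are reads per 1e6 effective library reads (total times TMM factor), and ± is the SD over 2 libraries unless stated. DESeq2 1.42.0 (without independent filtering, which had left the adjusted p of these genes undefined) and limma-voom (limma 3.58.1) were alternatives, as were other scalings, filters and left-out libraries. The procedure was tested on simulated data.

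The 42 genes and the pathway and cell cycle lists were chosen with earlier results of these data known. Reads in every library were given for genes with an unadjusted p under 0.05, for the highest and lowest log2 fold change of each complex and for the extremes of level per length. For other genes they were given where replicates or pairs stood apart, a choice made after their values were seen. Names, chromosomes and coding lengths came from the R64 assembly of another strain, so no coordinates are given. Promoter and protein sequences were not used here.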

Additional observations from a re-analysis of the deposited data

How the results depend on the processing

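No alternative fit with tests other than the 2 scalings called any of the 39 genes: DESeq2's size factors called 1 higher (NUF2) and 1 lower (IML3), and total counts called 7 higher. The median log2 fold change was 0.53 with total counts, between 0.038 (without haploid A) and 0.49 (without haploid B) when 1 library was left out in a fit without the block, in which the lone sample is assumed to vary like the other group, and 0.26 with no replicate block. The pathway genes called numbered 3 with the block and 0 with no replicate block, 0 with DESeq2, 0 with no filter and 9 with total counts. The cell cycle genes called numbered 3 with the block and 0 with no replicate block, 0 with DESeq2, 0 with no filter, 1 with at least 30 reads in every library and 6 with total counts. Over all genes, lower and higher calls were 18 and 4 without the block, 124 and 17 with DESeq2 and 87 and 12 with no filter. They were 163 and 73 with at least 30 reads, which left 18 of the 39 genes to test, and 369 and 154 with limma-voom. With DESeq2's size factors they were 490 and 262, and with total counts 115 and 1168.

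Of the 15 genes with the highest or lowest values of each complex or an unadjusted p under 0.05, for which the alternatives were computed gene by gene, 4 changed sign in at least 1, while over all 39 genes 12 had opposite signs in the pairs. NSL1 was at 0.26 with total counts, 0.19 in pair A alone and between -0.27 and 0.27 with 1 library left out. CBF1 was at -0.22 in pair B alone and between -0.019 and 0.75 with 1 library left out, and SGO1 at -0.17 in pair B alone and between -0.29 and 0.43. BUB3 was at 0.28 with total counts, 0.0020 with no filter, 0.0074 with at least 30 reads in every library, 0.16 in pair B alone and between -0.19 and 0.17 with 1 library left out. The cause was not tested. A median of 47.5 reads per library, and standard errors of 0.162 to 0.356 on the log2 scale, limit what could be called among these genes.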
